A study of Homo sapiens with 39 samples.

Results

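The endoplasmic reticulum (ER) unfolded protein response was described through 10 genes: XBP1, HSPA5, HSP90B1, DNAJB9, SDF2L1, PDIA4, CALR, EDEM1, SEL1L and CRELD2. They were taken by name, not by their values, as the genes to which the platform's annotation ties a probe. Earlier results of these data were known when they were chosen. They are 10 of the 20046 genes that a probe of a single gene covers. XBP1 has 2 probes and the others 1 each, so 11 probes were read. All 10 passed the filter on dim probes and are among the 18555 genes tested. The probe of SEL1L was dim, at 82.7 to 117 intensity units, and lay above the filter value of 93.6 in 31 of 39 arrays, so the results on SEL1L are weak.

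The ER folds secreted and membrane proteins, and unfolded protein there is sensed by IRE1 (gene ERN1), ATF6 and PERK (gene EIF2AK3). IRE1 splices the XBP1 transcript, and the spliced form and cleaved ATF6 are transcription factors that raise ER chaperones, folding enzymes and the degradation machinery. PERK instead phosphorylates eIF2alpha, which lets ATF4 be translated, and ATF4 is also reached from amino acid, haem and viral sensors that do not need the ER. The genes above mostly report the XBP1 and ATF6 branches, so they were set beside a list of 37 ATF4 target genes, called the ATF4 arm here.

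The study put 2 human lung cancer lines on 39 Illumina bead arrays: NCI-H209 (H209), a small cell line of neuroendocrine kind, with 19 arrays, and NCI-H838 (H838), an adenocarcinoma line, with 20. Treatment was 100 nM DKFZ-608 in 6.9 µM cyclodextrin for 4, 8 or 24 h. The study's title calls this compound, known only by its code, a non-covalent TXNRD1 inhibitor (TXNRD1 is thioredoxin reductase 1, which recycles the antioxidant protein thioredoxin). Vehicle cultures received cyclodextrin alone for the same times or at 0 h, so every group carries cyclodextrin. There were 3 arrays per group, but only 2 in both H209 groups at 8 h and in the treated H838 group at 24 h. No label tells whether the replicates of a group were grown separately, and the p-values speak only for the scatter among these arrays. Neuroendocrine markers were high in H209 (GRP at a median log2 intensity of 13.59 against 6.34 in H838, INSM1 at 11.77 against 6.59). The epithelial markers, listed for the adenocarcinoma line, were mostly lower in H838. Medians in H838 against H209 were 6.51 against 10.55 for CDH1, 6.44 against 11.04 for KRT19 and 7.41 against 12.59 for EPCAM. They were 9.31 against 10.67 for KRT8, 7.02 against 7.52 for KRT18 and 7.79 against 7.77 for KRT7. CDH1 and KRT19 thus lay near the filter value in H838. At 0 h limma called 5 of these 6 lower in H838 and 0 higher, against 24.5% and 21.3% of all genes. Of the markers of other cells, CD68 and CD14 were above the filter value in all arrays of both lines, LUM in all of H838 and VWF in all of H209, and their part in the results was not tested.

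In H209, 4 arrays carried the profile of the opposite label. MT1M, a metal-binding protein, was at a log2 intensity of 12.17 in the array labelled vehicle 8 h replicate 2 and 10.65 in the array labelled vehicle 24 h replicate 3, against 6.36 to 6.67 in the other 9 vehicle arrays. It was at 6.56 in the array labelled DKFZ-608 8 h replicate 2 and 6.33 in the array labelled DKFZ-608 24 h replicate 3, against 9.79 to 12.10 in the other 6 treated arrays. HMOX1, which breaks down haem, split the same way, at 12.47, 11.01, 8.09 and 7.47 in these arrays in the same order. Each H209 comparison is therefore given with all arrays as labelled and without these 4 arrays. They were picked by their expression, so the second fit is no independent evidence, and it leaves 1 array against 1 at 8 h and 2 against 2 at 24 h.

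The promoters show which of these genes carry the letters known as the ER stress response element (ERSE), to which ATF6 binds with NF-Y. The windows are the 250 bases before a gene's start in RefSeq, build GRCh38.p14, read on the gene's strand. Printed here are XBP1 (chr22:28800570-28800819, minus strand) and DNAJB9 (chr7:108569624-108569873, plus strand), the ER genes that passed at 4 h in H209 in one fit or the other. With them stand HSPA5 (chr9:125241344-125241593, minus strand), the classical ER stress target, SDF2L1 (chr22:21642052-21642301, plus strand) and CRELD2 (chr22:49918384-49918633, plus strand). Capitals mark an exact match to the ERSE or ERSE-II, on either strand.
XBP1: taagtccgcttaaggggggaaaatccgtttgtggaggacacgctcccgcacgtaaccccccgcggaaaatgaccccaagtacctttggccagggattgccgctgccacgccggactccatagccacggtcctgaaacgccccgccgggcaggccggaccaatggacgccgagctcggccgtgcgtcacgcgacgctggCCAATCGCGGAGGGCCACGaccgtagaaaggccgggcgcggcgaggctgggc
DNAJB9: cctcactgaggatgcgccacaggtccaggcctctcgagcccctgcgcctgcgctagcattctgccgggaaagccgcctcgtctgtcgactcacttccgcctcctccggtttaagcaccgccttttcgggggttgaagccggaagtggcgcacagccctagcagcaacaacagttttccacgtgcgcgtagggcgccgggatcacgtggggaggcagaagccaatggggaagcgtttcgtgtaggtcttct
HSPA5: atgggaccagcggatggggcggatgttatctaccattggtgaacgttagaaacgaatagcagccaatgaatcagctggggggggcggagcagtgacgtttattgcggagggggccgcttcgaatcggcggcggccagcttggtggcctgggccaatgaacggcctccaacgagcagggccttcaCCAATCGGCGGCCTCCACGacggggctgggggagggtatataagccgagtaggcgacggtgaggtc
SDF2L1: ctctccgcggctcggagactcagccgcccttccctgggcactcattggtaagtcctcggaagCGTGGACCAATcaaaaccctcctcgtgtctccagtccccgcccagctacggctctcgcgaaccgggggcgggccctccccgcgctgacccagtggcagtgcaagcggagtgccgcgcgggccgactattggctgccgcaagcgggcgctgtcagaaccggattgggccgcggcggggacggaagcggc
CRELD2: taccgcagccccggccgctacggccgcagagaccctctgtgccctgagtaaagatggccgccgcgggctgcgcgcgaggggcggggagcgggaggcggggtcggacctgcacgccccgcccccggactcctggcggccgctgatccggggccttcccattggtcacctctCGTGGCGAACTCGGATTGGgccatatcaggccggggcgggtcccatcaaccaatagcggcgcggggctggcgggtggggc

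The letters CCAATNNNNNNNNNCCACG (ERSE) were found on either strand in 25 of 27305 genes with a promoter in the table, which is 0.0916%. They were in 5 of the 10 ER genes: XBP1, HSPA5, HSP90B1, which holds 2 matches, CALR and CRELD2. In XBP1 the match lay 52 to 34 bases before the start, and in HSPA5 66 to 48 bases before it. SDF2L1 held the ERSE-II, the letters ATTGG followed by any base and then by CCACG, found in 0.0659% of genes, at 188 to 178 bases before its start. DNAJB9, PDIA4, EDEM1 and SEL1L held neither in this window. None of the 10 held TGACGTG (the core of the unfolded protein response element, 2.05% of genes), and HSPA5 alone held TGACGT (8.62% of genes), letters that TGACGTG contains. The letters TGATGNAAN of the C/EBP-ATF response element, to which ATF4 binds with C/EBP partners, were in 3.87% of genes. None of the 10 ER genes held them, against 8 of the 30 ATF4 arm genes matched in the table, and none of those 30 held the ERSE or ERSE-II. XBP1 and PDIA4 have 2 starts in the table, and the second XBP1 window held none of these letters. A match is a description of letters, not a binding site.

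At 4 h in H209, which asks what the inhibitor changes early, XBP1 rose and none of the ER chaperones passed the test. XBP1 encodes the transcription factor that IRE1 activates by splicing. Its log2 intensity was 11.04, 11.36 and 11.21 in the vehicle arrays and 11.88, 11.82 and 11.66 in the DKFZ-608 arrays. Every treated array was above every vehicle array, and also above the 0 h arrays (11.06, 11.39 and 11.26). The difference was 0.58 ± 0.13 SE on the log2 scale, a 1.497-fold rise (limma, adjusted p = 0.0197, n = 3 against 3). The second XBP1 probe gave 0.66. The annotation names a different XBP1 transcript for each probe, and whether either probe tells the spliced from the unspliced form was not tested. The call was lost with the spread taken from H209 alone (adjusted p = 0.225) and with background subtracted (adjusted p = 0.0787). The call was also lost without any 1 of 4 of the 6 arrays compared (DKFZ-608 replicate 1 or 2, vehicle replicate 1 or 3, adjusted p = 0.0627 to 0.194). The difference stayed between 0.50 and 0.59 in these fits, which all keep the 4 arrays with the opposite profile. Without those 4 arrays the difference was 0.58 and XBP1 was called. In bulk RNA a change in each cell and a change in the share of responding cells cannot be told apart.

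DNAJB9, a co-chaperone of HSPA5 that binds IRE1 and acts in ER-associated degradation, was at 8.59, 8.86 and 8.82 in vehicle and 9.07, 9.32 and 9.41 in treated arrays at 4 h. The groups did not overlap. The difference of 0.51 ± 0.19 (1.43-fold) did not pass in the fit of all arrays (limma, adjusted p = 0.326). The DNAJB9 error includes the 4 opposite-profile arrays: without them it was ± 0.11 and the gene passed (adjusted p = 0.00564), and with the 6 arrays compared alone the adjusted p was 0.0732.

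HSPA5 encodes BiP, the HSP70 chaperone of the ER whose rise is the usual marker of this response. It was at 8.85, 8.75 and 8.94 in vehicle and 8.91, 8.85 and 8.96 in treated arrays, so the groups overlapped. The difference was 0.06 ± 0.10, with a 95% interval from -0.14 to 0.26. HSP90B1 (GRP94, the HSP90 chaperone of the ER) was at 11.67, 11.76 and 11.67 in vehicle and 11.54, 11.59 and 11.62 in treated arrays. These groups did not overlap, but the difference of -0.12 ± 0.11 did not pass (limma, adjusted p = 0.921). The other chaperones and folding enzymes were SDF2L1, which works in a complex with the co-chaperone DNAJB11, at -0.25 ± 0.15, PDIA4, a disulfide isomerase, at -0.02 ± 0.11, and CALR, the lectin chaperone calreticulin, at -0.13 ± 0.13. None of these 3 passed.

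EDEM1, a lectin that hands misfolded glycoproteins to degradation, differed by 0.09 ± 0.09 at 4 h. SEL1L, the scaffold of the HRD1 ubiquitin ligase, had an interval from -0.15 to 0.14. CRELD2, an ER-resident protein known to be induced by ER stress, differed by -0.07 ± 0.12, with an interval from -0.32 to 0.18. These 3 genes had overlapping groups and did not pass. Set side by side by replicate number, HSPA5 and EDEM1 were higher and SDF2L1 and CRELD2 lower in every treated array at 4 h. PDIA4, CALR and SEL1L were mixed. No fit of these pairs was made, and the share of all genes with such a pattern is not given here. All arrays together thus called 1 of the 10 ER genes, against 0.652% of all genes tested in either direction and 0.528% higher. Without the 4 arrays the count was 2 of 10, against 1.88% of all genes and 1.22% higher, and the 6 arrays compared alone called XBP1 only, against 0.771% of genes.

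**Figure D1:**
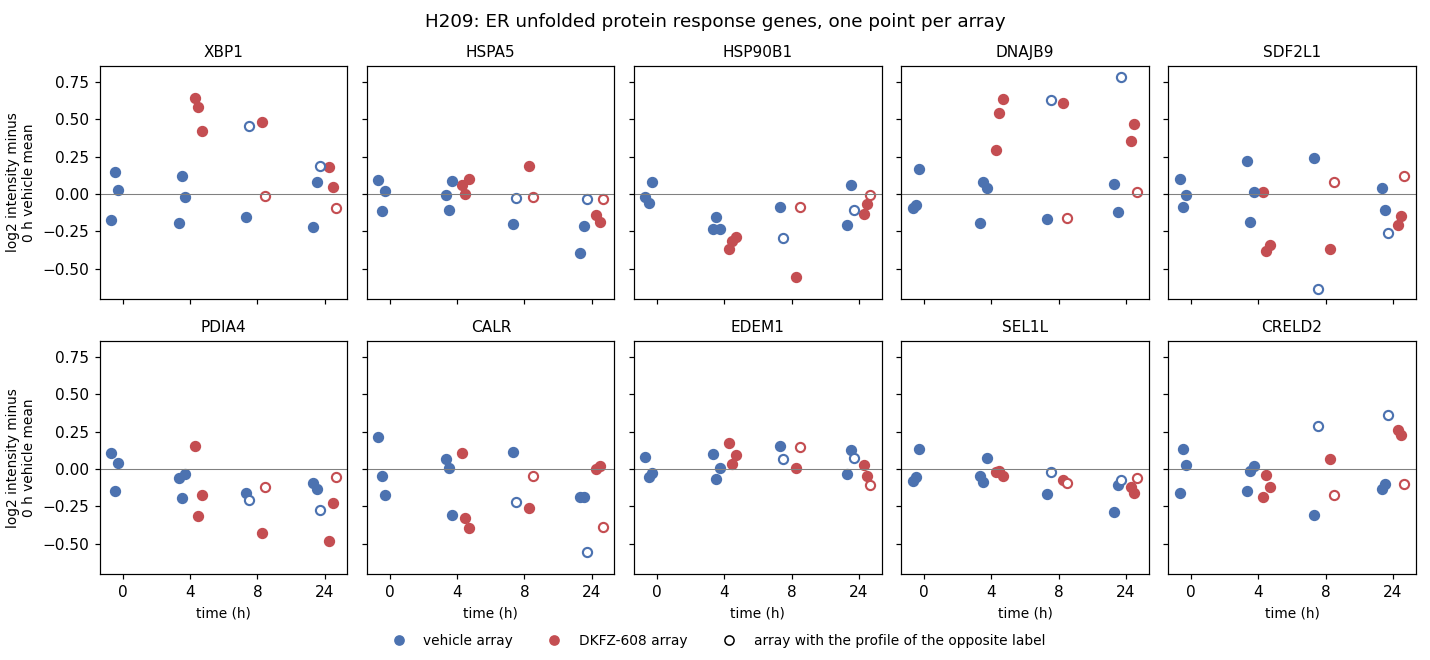
Log2 intensity of the 10 ER genes in each of the 19 H209 arrays, minus the mean of the 3 vehicle arrays at 0 h, against time in hours. Blue points are vehicle, red points are DKFZ-608, and open points are the 4 arrays with the profile of the opposite label. In XBP1 and DNAJB9 the 3 treated points at 4 h lie above the 3 vehicle points, while those of HSPA5 overlap, and at 8 h and 24 h the open points of DNAJB9 lie with the filled points of the other label.

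The ATF4 arm moved by more at the same time. Of its 37 genes 12 rose at 4 h with all arrays, against 0.528% of all genes, and 20 without the 4 arrays, against 1.22%. The count fell to 3 with the spread taken from H209 alone, where 0.129% of all genes rose. It fell to 7 with background subtracted, where the share of all genes is not given here. Both of these fits keep the 4 arrays, and no ER gene passed in either. With all arrays the ATF4 arm had a median difference of 0.41 against -0.01 for the ER genes and -0.01 for all genes tested. ATF3, a stress-induced factor, rose by 2.33 ± 0.36 (limma, adjusted p = 0.000292), STC2, a secreted glycoprotein, by 1.39 ± 0.23 (adjusted p = 0.000862) and DDIT3, which encodes CHOP, by 1.35 ± 0.23 (adjusted p = 0.0011). DDIT4, an inhibitor of mTOR signalling, rose by 1.27 ± 0.19. The transcript of ATF4 itself, which is controlled at translation, differed by 0.19 ± 0.13, and the asparagine synthetase gene ASNS by 0.33 ± 0.15, and neither passed. TRIB3, a pseudokinase, reached 0.97 ± 0.24 (adjusted p = 0.0547). Of the 37 differences 35 were above 0, against 4 of 10 in the ER genes and 8659 of the 18555 genes tested. Both lists come from the same arrays and were chosen with earlier results of these data known, so these counts are a description. No test of one list against the other was made.

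The arrays one by one gave the same contrast in the mean of each list, relative to 0 h. At 4 h the mean log2 difference of the ATF4 arm was 0.49, 0.59 and 0.56 in the treated H209 arrays and -0.12, 0.03 and 0.10 in the vehicle arrays. The mean of the 10 ER genes was 0.09, -0.02 and -0.01 in the treated arrays and -0.05, -0.06 and -0.04 in the vehicle arrays. Neither list had overlapping groups in these means, and the treated arrays stood farther from vehicle in the ATF4 arm than in the ER genes. The medians of the ER genes did overlap, at 0.08, -0.03 and -0.08 in treated and -0.05, -0.08 and 0.01 in vehicle arrays. Those of the ATF4 arm did not (0.42, 0.41 and 0.42 against -0.10, 0.03 and 0.08). In the means, the arrays labelled vehicle 8 h replicate 2 and vehicle 24 h replicate 3 had the pattern of the treated arrays. The ATF4 arm was at 0.54 and 0.46 there and the ER genes at 0.00 and 0.01. In the arrays labelled DKFZ-608 8 h replicate 2 and DKFZ-608 24 h replicate 3 the ATF4 arm was at 0.08 and -0.02.

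**Figure D2:**
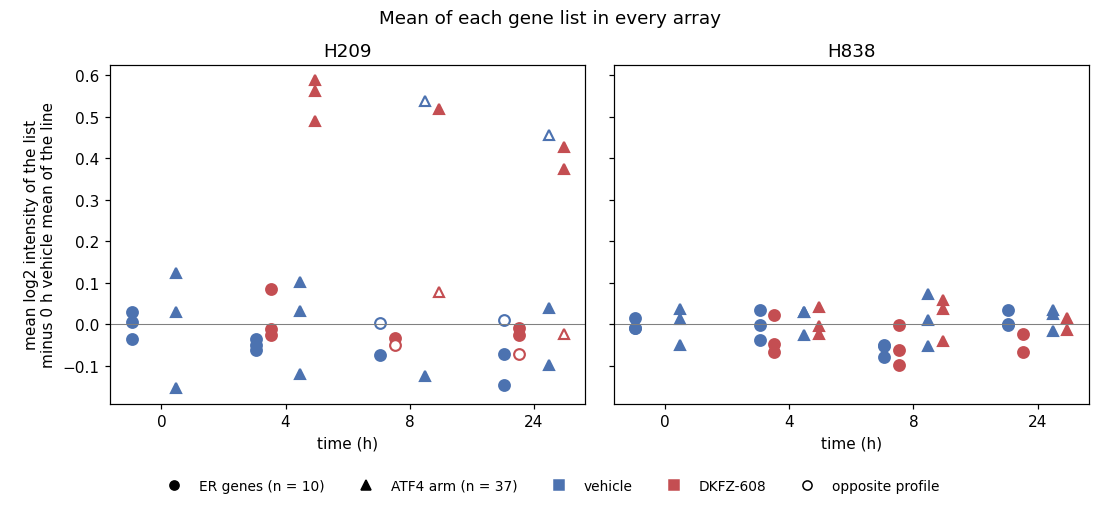
Mean log2 intensity of the 10 ER genes (circles) and the 37 ATF4 arm genes (triangles) in each array, minus the mean of the line's 0 h vehicle arrays, against time in hours, for H209 and H838. Blue is vehicle, red is DKFZ-608, and open symbols are the 4 H209 arrays with the opposite profile. The treated H209 triangles with filled symbols lie between 0.38 and 0.59, while all circles lie between -0.15 and 0.09.

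The rest of the ER response was read from 4 further lists. None of the 10 sensors and regulators passed at 4 h, with ERN1 at 0.05 ± 0.10, ATF6 at -0.07 ± 0.16 and EIF2AK3 at 0.14 ± 0.08. Of 18 other chaperones and folding enzymes none passed with all arrays (median -0.08), and without the 4 arrays MANF, a neurotrophic factor held in the ER, fell by 0.29 ± 0.07 (limma, adjusted p = 0.0156). None of the 11 other genes of ER-associated degradation (median 0.01) and none of the 14 of translocation and export (median -0.07) passed in either fit. No gene of these 4 lists rose at 4 h in either fit.

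At 8 h as labelled, no ER gene and none of all genes passed (0% called by limma; 396 genes and 0 of the 10 at an unadjusted p under 0.05). DNAJB9 was at 8.61 and 9.41 in the vehicle arrays and at 9.39 and 8.62 in the DKFZ-608 arrays, where the second value of each pair is an opposite-profile array. XBP1 was at 11.08 and 11.69 in vehicle and 11.72 and 11.22 in DKFZ-608. SDF2L1 ran the other way, at 10.74 and 9.86 in vehicle and 10.13 and 10.58 in DKFZ-608. In all 3 genes the second vehicle array lay nearer to the first treated array than to the first vehicle array.

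Without these arrays 1 vehicle array was set against 1 treated array at 8 h, with their scatter taken from the other groups. DNAJB9 then rose by 0.77 ± 0.19 (limma, adjusted p = 0.0273), the only ER gene past the threshold, against 1.42% of all genes in either direction and 1.02% higher. XBP1 was at 0.63 ± 0.17 and SDF2L1 at -0.61 ± 0.17. The replicate block could not change these differences, since both arrays left at 8 h are replicate 1. Which ER genes passed at 8 h depended on the fit. HSPA5 was at 0.39 ± 0.16, CRELD2 at 0.37 ± 0.14 and HSP90B1 at -0.47 ± 0.17, and none of these passed. CALR, PDIA4, EDEM1 and SEL1L lay between -0.37 and 0.09. The second XBP1 probe gave 0.34, and the ATF4 arm had 16 of 37 genes higher with a median of 0.54.

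At 24 h as labelled, again no ER gene and no gene at all passed (0% called; 439 genes and 0 of the 10 at an unadjusted p under 0.05). CRELD2 was at 10.47, 10.51 and 10.97 in vehicle and 10.87, 10.83 and 10.50 in DKFZ-608, where the third value of each is an opposite-profile array. DNAJB9 was at 8.84, 8.66 and 9.56 in vehicle and 9.13, 9.24 and 8.79 in DKFZ-608. In both genes the third array of each group sat with the other group. XBP1, at 11.02, 11.32 and 11.42 in vehicle and 11.42, 11.28 and 11.15 in DKFZ-608, had groups that overlapped even without the third arrays. The second XBP1 probe did not overlap without them, at 10.94 and 11.07 in vehicle and 11.28 and 11.35 in DKFZ-608.

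Without the 4 arrays no ER gene passed at 24 h (n = 2 against 2), while 1.66% of all genes did, 1.22% higher. DNAJB9 was at 0.44 ± 0.13 (limma, adjusted p = 0.113) and CRELD2 at 0.36 ± 0.10 (adjusted p = 0.0716). The replicate block called both, at 0.0326 and 0.0253, but the share of all genes called with the block is not given here. XBP1 was at 0.18 ± 0.12 and HSPA5 at 0.14 ± 0.11, with an interval for HSPA5 from -0.09 to 0.37. The second XBP1 probe gave 0.31. The ATF4 arm had 11 of 37 genes higher, with a median of 0.27 against 0.10 for the 10 ER genes.

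Averaged over the 3 times, 3 ER genes of H209 rose and 1 fell once the 4 arrays were left out. DNAJB9 rose by 0.58 ± 0.09 (limma, adjusted p = 2.11e-05), XBP1 by 0.47 ± 0.08 (adjusted p = 0.000112) and CRELD2 by 0.22 ± 0.06 (adjusted p = 0.0427). SDF2L1 fell by 0.33 ± 0.08 (adjusted p = 0.00675). That is 4 of 10 called, against 4.87% of all genes, with 3 higher against 2.74% and 1 lower against 2.13%. HSPA5, at 0.20 ± 0.07 (adjusted p = 0.123), HSP90B1, at -0.21 ± 0.08, and PDIA4, at -0.18 ± 0.08, did not pass, and the replicate block called HSPA5 as well (adjusted p = 0.0343), which gave 5 genes. CALR, EDEM1 and SEL1L lay between -0.10 and 0.05.

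With all arrays as labelled none of the 10 ER genes and 0% of all genes passed in this average (796 genes and 1 of the 10 at an unadjusted p under 0.05). XBP1 was then at 0.23 ± 0.08 (limma, adjusted p = 0.857) and DNAJB9 at 0.18 ± 0.12. The sign of CRELD2 turned with the arrays, from -0.01 ± 0.08 to the rise above. In the fit without the 4 arrays the ATF4 arm had 25 of 37 genes higher and a median of 0.39, against 0.00 for the ER genes. MANF fell by 0.22 ± 0.05 (adjusted p = 0.00774) and SSR1, a subunit of the translocon-associated complex, by 0.26 ± 0.07 (adjusted p = 0.0389), and no gene of the 4 further ER lists rose.

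In H838 none of the 10 ER genes passed at 4, 8 or 24 h or in the mean of times. limma called 0% of genes in each of these comparisons with all arrays, with 493, 638, 562 and 547 genes and none of the 10 at an unadjusted p under 0.05. Without the 4 H209 arrays, which also enter the shared spread, 0.0216%, 0.0269%, 0.0108% and 0.0216% of genes passed and still no ER gene. MT1M was at 7.55 to 9.69 in the 8 treated H838 arrays and 7.06 to 7.53 in the 12 vehicle arrays, without overlap. The ER genes of the same arrays showed no such separation over the times.

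XBP1 in H838 was at 10.39, 10.30 and 10.31 in vehicle and 10.20, 10.26 and 10.07 in DKFZ-608 at 4 h. The treated arrays were lower, by -0.15 ± 0.13 with an interval from -0.42 to 0.11. The second XBP1 probe gave -0.06, with groups that overlapped. DNAJB9 was at 8.34, 8.20 and 8.02 in vehicle and 8.15, 7.82 and 7.98 in DKFZ-608, which overlap, with a difference of -0.20 ± 0.19. HSPA5 was at 8.39, 8.63 and 8.57 in vehicle and 8.71, 8.52 and 8.68 in DKFZ-608, at 0.11 ± 0.10. The widest differences of the 10 at the later times were PDIA4 at 8 h, 0.22 ± 0.11, and CALR at 24 h, -0.22 ± 0.15. The ATF4 arm medians in H838 were 0.00, 0.01 and -0.01 at the 3 times, and those of the ER genes 0.01, -0.02 and -0.04.

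**Figure D3:**
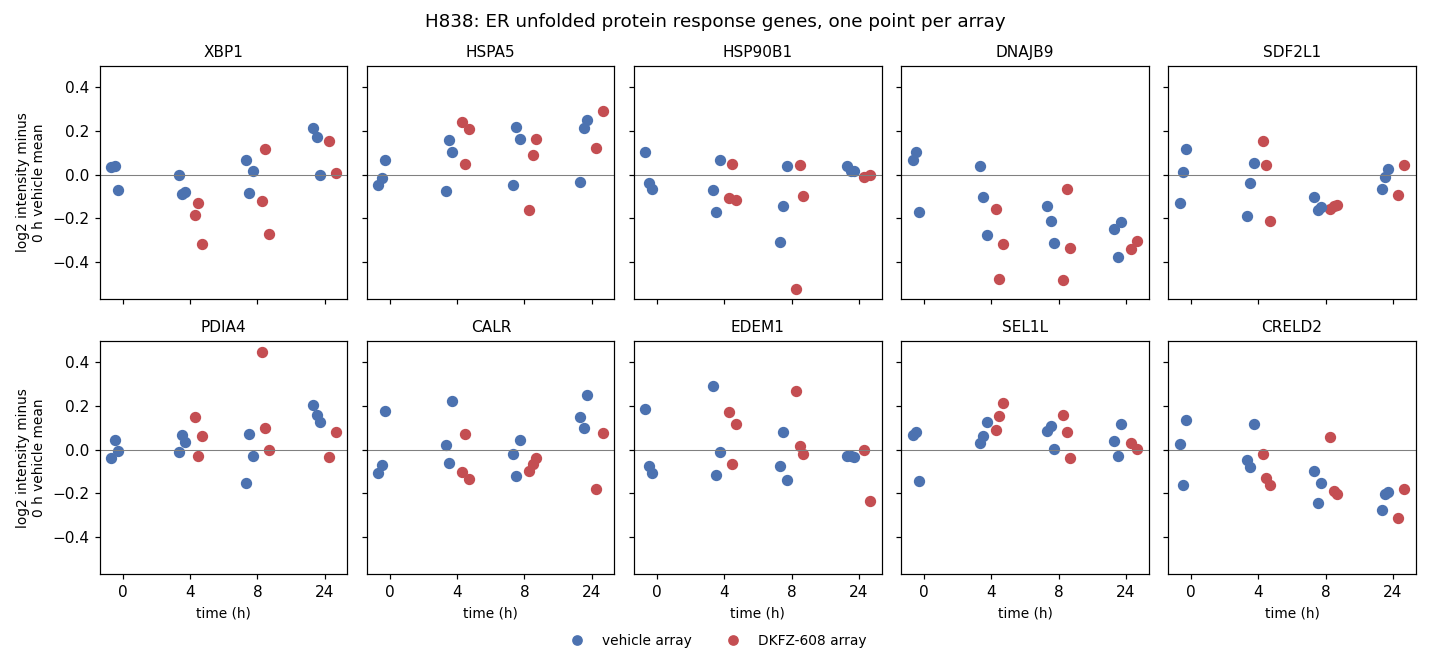
Log2 intensity of the 10 ER genes in each of the 20 H838 arrays, minus the mean of the 3 vehicle arrays at 0 h, against time in hours. Blue points are vehicle and red points are DKFZ-608, and no gene passed at any time, as in XBP1 at 4 h, where the difference is -0.15.

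The difference between the lines in the 4 h effect was tested directly. For XBP1 the H838 effect minus the H209 effect was -0.74 ± 0.18 with all arrays (limma, adjusted p = 0.183), where 0.0485% of genes and none of the 10 passed (996 genes and 2 of the 10 at an unadjusted p under 0.05). Without the 4 arrays its error was 0.14 and the adjusted p 0.00287, and DNAJB9, at -0.72 ± 0.15, passed too (adjusted p = 0.0126), against 0.717% of genes. With only the 12 arrays of the 4 h groups XBP1 passed (adjusted p = 0.00543) and DNAJB9 did not (adjusted p = 0.054), against 0.528% of genes. HSPA5 differed between the lines by 0.04 ± 0.14, with an interval from -0.24 to 0.32.

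At 24 h no ER gene differed between the lines in its effect, with all arrays (0% of genes, 467 of all genes at an unadjusted p under 0.05) or without the 4 (0.679% of genes). DNAJB9 was at -0.48 ± 0.18, CALR at -0.42 ± 0.19 and CRELD2 at -0.38 ± 0.14 in the fit without them. These 3 were at an unadjusted p under 0.05, as were 1344 of the 18555 genes tested in that fit, and the other 7 ER genes lay between -0.24 and 0.14.

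Before treatment the lines differed in most of these genes. At 0 h 9 of the 10 differed, against 45.8% of all genes. In H838 8 were lower, against 24.5% of genes, and 1 was higher, against 21.3%. Without the 4 H209 arrays, none of them from 0 h, the counts were the same, against 46.8% of all genes. CRELD2 was at 10.45, 10.74 and 10.63 in H209 and 8.95, 8.76 and 9.06 in H838, a difference of -1.69 ± 0.12 (0.310-fold, limma, adjusted p = 1.16e-13). XBP1 was at 10.42, 10.42 and 10.31 in H838, a difference of -0.85 ± 0.13 (adjusted p = 9.81e-07), and its second probe gave -0.99. PDIA4 was at 8.04, 7.79 and 7.98 in H209 and 6.93, 7.01 and 6.96 in H838, a difference of -0.97 ± 0.11. In these 3 genes all H838 arrays at 0 h lay below all H209 arrays, as they did in CALR, SDF2L1, HSPA5, DNAJB9 and SEL1L. The share of all genes without overlap is not given here.

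CALR (-0.64 ± 0.13), SDF2L1 (-0.59 ± 0.15), HSPA5 (-0.39 ± 0.10, adjusted p = 0.00122) and SEL1L (-0.22 ± 0.07, adjusted p = 0.011) were also lower in H838 by limma. DNAJB9 was lower by -0.48 ± 0.19 (adjusted p = 0.0356), and its call was lost without H209 replicate 3 or H838 replicate 3 at 0 h (both 0.142) or H838 replicate 1 (0.0512), and with quantile normalization (0.05). SEL1L lost its call without H209 replicate 3 (adjusted p = 0.12) or H838 replicate 3 (0.126), and with the 0 h arrays alone (0.0647). SEL1L was at 6.65, 6.68 and 6.87 in H209 and 6.58, 6.59 and 6.37 in H838, close to the filter value of 6.55. EDEM1 was the exception, at 6.94, 6.81 and 6.83 in H209 and 7.75, 7.49 and 7.46 in H838, higher by 0.71 ± 0.09 (adjusted p = 7.53e-08). HSP90B1, at 0.07 ± 0.11, did not differ beyond its error (adjusted p = 0.679, interval from -0.15 to 0.29).

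The median difference between the lines at 0 h was -0.53 in the 10 ER genes, -0.61 in the ATF4 arm and 0.01 in all genes. Of the ATF4 arm 24 genes were lower in H838 and 3 higher, with GDF15 at -3.06 ± 0.35, INHBE at -2.56 ± 0.26, ASNS at -2.54 ± 0.15, DDIT4 at -2.08 ± 0.19, TRIB3 at -1.76 ± 0.24, DDIT3 at -1.73 ± 0.23 and ATF4 at -0.55 ± 0.13. Against the 21.3% of all genes higher and 24.5% lower, 8 of 18 other chaperones and folding enzymes were higher and 6 lower (median 0.09). Of 11 other degradation genes 5 were higher and 4 lower (median 0.19), and of 14 translocation genes 7 and 3 (median 0.17). No test set these lists against the 10 ER genes. FKBP11, an ER prolyl isomerase, stood at 4.51 ± 0.10. Of the sensors EIF2AK3 was lower (-0.39 ± 0.08), and ERN1 (0.14 ± 0.10) and ATF6 (-0.04 ± 0.16) did not pass.

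**Figure D4:**
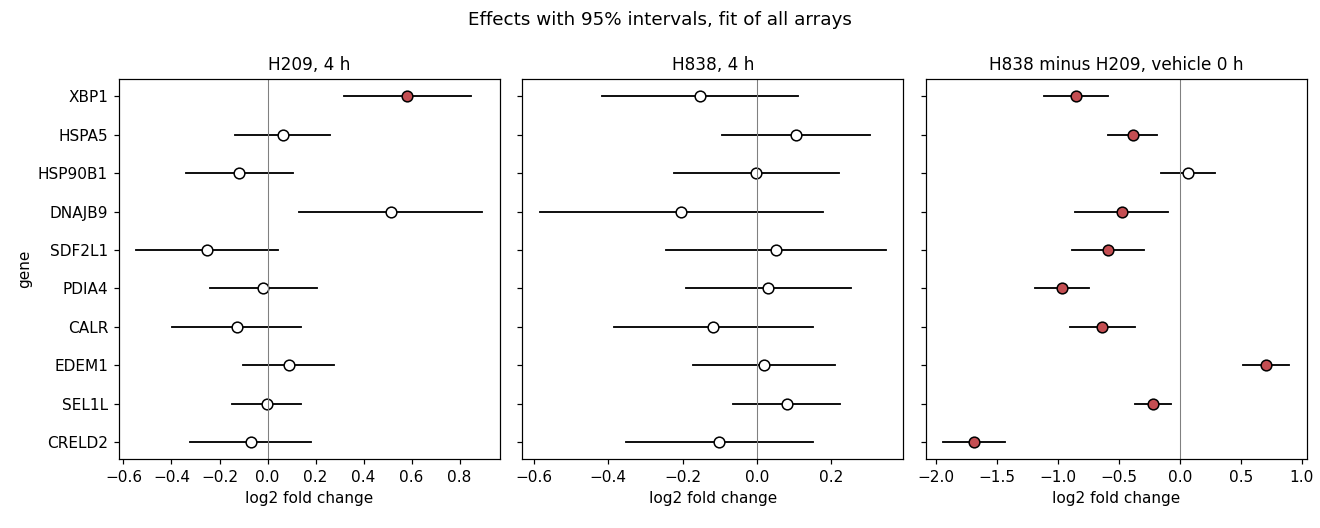
Log2 fold change of the 10 ER genes with 95% intervals in the fit of all arrays: DKFZ-608 minus vehicle at 4 h in H209 and in H838, and H838 minus H209 at 0 h. Filled points passed an adjusted p of 0.05 and open points did not; the axes differ between panels. XBP1 passes in H209 at 4 h (0.58), no gene passes in H838, and 9 of 10 genes pass between the lines.

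Time in vehicle alone gave no called ER gene. From 0 to 24 h, limma called 0.0162% of genes in H209 with all arrays, 0.0593% without the 4 arrays and 1.89% in H838, and none of the 10. HSPA5 in H209 was at 8.95, 8.74 and 8.87 at 0 h and 8.46, 8.64 and 8.82 at 24 h, where the third value is an opposite-profile array. Its difference was -0.21 ± 0.10 with all arrays and -0.31 ± 0.10 without that array. The signs of DNAJB9 (0.24 and -0.03), CRELD2 (0.04 and -0.12) and XBP1 (0.02 and -0.07) turned between these fits, so that 4 of the 10 differences were above 0 with all arrays and 1 without. At an unadjusted p under 0.05 were 3 of the 10 in H209 with all arrays, against 697 of the 18555 genes tested. Without the 4 arrays 2 of the 10 were, where the number over all genes is not given here. In H838 with all arrays 0 of the 10 were, against 2053 of all genes. In H838 the widest difference was DNAJB9, at -0.28 ± 0.19 (limma, adjusted p = 0.654).

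The 10 genes did not vary as a block. In the 19 H209 arrays XBP1 and DNAJB9 correlated at a Pearson r of 0.72 and DNAJB9 and CRELD2 at 0.64, while SDF2L1 ran against XBP1 (-0.75) and DNAJB9 (-0.83). HSPA5 and SEL1L correlated at 0.71. Over all pairs of the 10 the median r was 0.01 in H209 and -0.03 in the 20 H838 arrays, where r ran from -0.42 to 0.50 and XBP1 with DNAJB9 gave 0.22. These values are descriptions, since the arrays share treatments and times, and those of the dim genes SEL1L, EDEM1 and PDIA4 rest on small differences.

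Over the 39 arrays, with each line's mean subtracted, the genes most like XBP1 were CEBPB (r = 0.86), DDIT3 (0.84), DDIT4 (0.83), TSC22D3 (0.82) and ULBP1 (0.82). CEBPB, DDIT3 and DDIT4 are in the ATF4 arm. The genes most like HSPA5 were FOXJ3 (0.72), DNASE2 (0.70), FAF2 (0.70), JAM3 (0.70) and ACACA (0.70), none of them in the ATF4 arm and 1, FAF2, in the degradation list. Within H209, XBP1 and HSPA5 correlated at 0.44.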

How the data were processed

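RNA of 39 arrays was measured as probe intensity on a linear scale, as deposited by the authors; per the labels, total RNA was column-purified and amplified to biotin-labelled cRNA, and the normalization is not given in the sources used here. Array quartiles lay within 0.0720 of each other in log2 units and medians ran from 92.6 to 94.2, so the deposited scale was kept. Background is still in the values, so folds of dim probes are understated, and precision is limited by how few arrays there are. Line and time follow the titles, since the time field of 1 H209 vehicle array (replicate 3, 24 h) goes against its title and that of another (replicate 2, 24 h) is empty. Treatment follows the treatment field of the labels. The titles of the treated H838 arrays of replicate 1 do not name the compound.

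Of 48107 probes, 20 with empty cells were left out. Intensities under 75.8, percentile 1 of the table, were raised to it, and log2 was taken. Probes above a log2 of 6.55 in at least 2 arrays were kept (42925), of which 26943 had 1 gene. The brightest probe stood for a gene, giving 18555 genes. limma 3.58.1 in R 4.3.3 fitted 14 group means (25 residual and 6.79 prior degrees of freedom), with two-sided tests and Benjamini-Hochberg adjustment over all genes of a comparison at 0.05. Errors are standard errors. The procedure was tested on simulated data.

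The members, the lists and the 4 arrays left out were chosen with earlier results of these data known. All 10 ER genes are named in each comparison. For other lists the rule named up to 4 genes past the threshold with the largest change in either fit, and always ATF4, DDIT3, ASNS, TRIB3, ERN1, ATF6 and EIF2AK3; the 5 most similar genes were given for XBP1 and HSPA5. Some genes of the further lists were not analysed here.

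Same-number arrays were checked as pairs by the correlation of their deviations from group means. In H209 at 4 h these were 0.48, 0.14 and 0.551, each above 0.1, so that same-number arrays of that time count as pairs. The same held in H838 at 24 h, at 0.261 and 0.225. The fit reported leaves this pairing out. The replicate block takes in replicate number within each line, shared over all times, not these pairs alone. Over all 16 pairs the correlations ran from -0.586 to 0.551, and 8 were above 0.1. The lowest is from H209 at 8 h, where groups of 2 give both pairs the same value and 1 pair is of opposite-profile arrays. The alternatives were the fit without the 4 arrays, other arrays giving the spread, the replicate block, other filters on dim probes, quantile normalization, background subtraction, the mean of probes, the time field, another variance model and each array left out in turn.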

Additional observations from a re-analysis of the deposited data

Results flagged for a closer look

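The 4 h effect of DKFZ-608 on 2 ER genes differed between the lines in the test of the difference itself, in the fit without the 4 opposite-profile arrays. For XBP1 the H838 effect minus the H209 effect was -0.74 on the log2 scale (limma, adjusted p = 0.00287). With the probe used, all 3 treated arrays were above all 3 vehicle arrays in H209 and below them in H838. The second XBP1 probe gave -0.72, with treated arrays above vehicle in H209 but overlapping groups in H838. For DNAJB9 the difference between the lines was -0.72 (limma, adjusted p = 0.0126), with all 3 treated arrays above vehicle in H209 and overlapping groups in H838. The share of all genes without overlap is not given here. With all arrays neither gene passed (limma, adjusted p of 0.183 and 0.749).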

How the results depend on the processing

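Leaving out the 4 opposite-profile arrays moved the count of ER genes in 4 comparisons, and in 5 with the replicate block added. Called at 4 h in H209 was 1 gene with all arrays, 2 without the 4 arrays, 2 with the block and without them, 0 with each line fitted alone, 0 with background subtracted, and 0 to 1 with single arrays left out. At 8 h in H209 the count was 0, then 1 without the 4 arrays and 3 with the block added, at 24 h 0 and then 2 with the block added, and in the mean of times 0, then 4 and 5. For the line difference at 4 h it was 0, then 2 in both fits without the 4 arrays and 1 from the 4 h arrays alone, an alternative chosen after seeing the data. Directions of DKFZ-608 effects in H209 turned, as against all arrays, in both fits without the 4 arrays: DNAJB9 (0.77), SDF2L1 (-0.61) and CRELD2 (0.37) at 8 h, SDF2L1 (-0.14) and HSP90B1 (-0.03) at 24 h, and CRELD2 in the mean of times (0.22). Of these DNAJB9 at 8 h and CRELD2 in the mean passed in both fits, and SDF2L1 at 8 h with the block only. The cause of the lost calls was not tested. Between the lines at 0 h DNAJB9 lost its call with quantile normalization (-0.46), and 7 to 9 were called with single arrays left out. XBP1 at 4 h in H209 was called in 11 of 13 settings with all its arrays, at 0.58 to 0.62 and adjusted p from 1.66e-05 to 0.225. With all arrays in the fit the replicate block changed no call of an ER gene. The share of all genes called is not given for the fits with the block or with background subtracted, so their counts lack that measure. The ATF4 arm at 4 h in H209 counted 12 genes, 20 without the 4 arrays, 22 with the block added, 3 with each line alone and 7 with background subtracted. Dim probes limit SEL1L, EDEM1 and PDIA4, whose folds are understated.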
